A study of Mus musculus with 46 samples.

Results

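The genes described here are 10 negative-feedback and target genes of the MAP kinase ERK: the phosphatases Dusp1, Dusp4, Dusp5 and Dusp6, the inhibitors Spry2, Spry4 and Spred1, the transcription factors Etv4 and Etv5, and the RNA-binding protein gene Zfp36. They were taken by name, as 10 of 56775 gene rows in one expression table and 10 of 55774 in each of the other 3. They were chosen by name with earlier results of these libraries known, and selected on their changes across the group contrasts, above all in AML12. The values of these genes in the AML12 groups are therefore given as a description, and the counts of genes that passed a test are set beside the share of all genes that did so, with nothing read from them.

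RNA sequencing covered 46 libraries of AML12, a line of mouse hepatocytes, and of mouse liver, and was done to study the long noncoding RNA Falcor together with the zinc finger protein ZC3H11A. In a first AML12 experiment, cells carried a conventional control hairpin, a hairpin against Falcor or a hairpin against ZC3H11A (3 libraries each). In a second, a control line (shCtrl) and a line titled shLinc, whose tag names the Falcor hairpin, were sampled in 3 states: without doxycycline (untreated), with doxycycline, which switches on an inducible hairpin, and in a state titled DoxMinus and tagged Restored (called restored here, 3 libraries per line and state). Livers were control or Falcor knockout (KO), on a diet labelled NCD (4 and 4) or HFD (5 and 6). The labels give neither the number of clones behind a line, the hairpin sequences, the length of doxycycline treatment or withdrawal, nor the strain, sex and age of the mice or the knockout allele.

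The table of conventional hairpins holds counts, with totals of 4474760 to 8837581 per library. These counts are shown here as CPM, scaled by library size and by a scale factor between libraries (TMM), not by the total alone. The other 3 tables hold whole numbers whose columns sum to between 833910 and 975752, so their values are given as deposited or after scaling between libraries, and the sequencing depth behind them is unknown. A gene was called when its adjusted p was below 0.05 (Benjamini-Hochberg over all genes tested, edgeR for the counts and limma for the other values). Fold changes of the other 3 tables are on the log2(scaled value + 1) scale, on which changes of low genes come out too small. Because values are whole, replicates of a low gene often share 1 number, and its errors are then too small. Separate cultures or animals are not stated for the replicates, so errors and p-values reflect the spread among these libraries, possibly technical.

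The target of each hairpin was checked first. Falcor (listed as 9030622O22Rik, a long intergenic RNA on chromosome 2) had 38, 11 and 24 counts under the conventional control hairpin, 7, 4 and 5 under its own hairpin and 4, 3 and 6 under the ZC3H11A hairpin. Falcor was lower under both hairpins, with log2 fold changes of -2.07 ± 0.51 (SE, edgeR adjusted p = 0.00242) and -2.17 ± 0.52 (edgeR adjusted p = 0.00226). Zc3h11a fell by 3.03 on the log2 scale under its own hairpin and by 0.75 under the Falcor hairpin (edgeR adjusted p = 0.0243). In the inducible lines, Falcor was listed at 4, 6 and 5 in the untreated control line and at 12, 9 and 10 in the untreated Falcor hairpin line, so the lines differed before doxycycline. With doxycycline it was listed at 5, 4 and 5 against 2, 2 and 3, and in the restored state at 5, 4 and 5 against 11, 9 and 11. It was at 0 in all 10 knockout livers.

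The summed level of 10 hepatocyte markers was 2070 to 2184 CPM under the control hairpin, 1716 to 1819 under the Falcor hairpin and 1763 to 2098 under the ZC3H11A hairpin. Of these markers Apoa2 was at 0 in every AML12 group. Single markers moved more than the sum: Alb averaged 57.3 CPM under the control hairpin, 11.1 under the Falcor hairpin and 23.3 under the ZC3H11A hairpin. Ttr averaged 131, 2.94 and 47.3 CPM in the same order, while the biliary keratin Krt19 stood at 402, 413 and 264 CPM. The summed level of 5 macrophage markers was 3.44 to 5.21 CPM under the control hairpin, 47.9 to 50.6 under the Falcor hairpin and 5.09 to 8.39 under the ZC3H11A hairpin. That rise was in Cd68, a lysosomal protein gene, from 3.84 to 49.2 CPM, while Adgre1, Clec4f and Ptprc were at 0 under the control and Falcor hairpins. In the inducible experiment summed hepatocyte markers, as scaled values, were 4769 to 5200 in the untreated control line and 4274 to 4368 in the untreated Falcor hairpin line. With doxycycline they were 5934 to 6106 and 5769 to 5844, and restored 5043 to 5116 and 4083 to 4174. Summed biliary markers, in the same order, were 1444 to 1589 and 1354 to 1372, 1241 to 1256 and 1018 to 1037, and 1454 to 1461 and 1226 to 1229. Macrophage markers in the inducible libraries ran from 0.925 to 4.63, with the endothelial and stellate markers all at 0. Under the conventional hairpins, the summed 5 stellate markers were 12.2 to 19.8 CPM for control and 23.1 to 26.9 for Falcor. For ZC3H11A they were 18.1 to 22.7 CPM. The part of these shifts in the results below was not tested.

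Background on the pathway helps to order the genes. Growth factor receptors activate Ras and the kinases RAF, MEK and ERK, and ERK in turn induces genes that switch the pathway off. DUSP1, DUSP4, DUSP5 and DUSP6 remove phosphate from MAP kinases, with DUSP5 and DUSP4 in the nucleus and DUSP6 selective for ERK in the cytoplasm, and DUSP1 acts mainly on p38 and JNK. Sprouty and SPRED proteins act upstream, between receptor and RAF. ETV4 and ETV5 are ETS factors of the PEA3 group whose genes are widely used as readouts of receptor signalling through ERK. ZFP36 (tristetraprolin) is induced by growth factors and stress and promotes the decay of mRNAs with AU-rich elements.

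In all, 3 of the phosphatase genes are shown with the sequence upstream of their start sites, because Dusp1, Dusp5 and Dusp6 had the largest changes among the 4 phosphatases and did not move alike. Each window holds 200 bases, from 250 to 51 bases before the RefSeq start (build GRCm38.p6), printed 5′ to 3′ on the strand of the gene, with motif matches on either strand in capitals.
Dusp1 (chr17:26508523-26508722, minus strand): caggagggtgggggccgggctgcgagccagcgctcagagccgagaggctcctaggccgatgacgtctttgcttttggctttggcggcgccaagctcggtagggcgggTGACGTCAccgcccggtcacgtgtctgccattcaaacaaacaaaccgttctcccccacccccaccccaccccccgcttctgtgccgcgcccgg
Dusp5 (chr19:53528895-53529094, plus strand): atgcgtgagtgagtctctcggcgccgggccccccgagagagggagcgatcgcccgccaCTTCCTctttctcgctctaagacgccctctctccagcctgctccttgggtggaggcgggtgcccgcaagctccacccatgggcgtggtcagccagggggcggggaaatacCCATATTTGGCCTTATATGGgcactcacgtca
Dusp6 (chr10:99262981-99263180, plus strand): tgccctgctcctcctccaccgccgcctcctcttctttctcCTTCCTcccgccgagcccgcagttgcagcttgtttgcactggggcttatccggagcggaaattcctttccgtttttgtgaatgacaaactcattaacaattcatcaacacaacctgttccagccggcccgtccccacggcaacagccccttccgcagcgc
The Dusp1 window holds the cAMP response element TGACGTCA 143 bases before the start, a sequence found in 0.828% of 32851 such windows. The Dusp5 window holds a pair of adjoining CArG boxes, the motif of serum response factor, at 82 and 72 bases before the start; 1.16% of windows hold 1 or more CArG boxes. Dusp5 and Dusp6 each hold the PEA3-type core AGGAAG, which 23.9% of windows hold. The capitals in the printed windows are these motifs.

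By symbol, 8 RefSeq windows of 7 of the genes were matched (Etv5 has 2; Dusp4, Spry4 and Etv4 have none), and the search covered both strands for 8 motifs. Outside the printed windows, Zfp36 held the ETS motif CCGGAAG (3.98% of windows) and the EGR motif GCGGGGGCG (1.61%). No window of the 7 genes held the AP-1 motif TGANTCA, which 5.57% of windows hold. The short sequence TGACG, which lies within the cAMP response element, was found for Dusp1 and Dusp5 (12.7% of windows), and GGGCGG for Spred1, Zfp36, Etv5, Dusp1 and Dusp5 (24.6%). A match describes letters in a window only. The Dusp5 window is covered throughout by an exon of AC137853.2, a gene model on the opposite strand in GENCODE vM21. The Dusp1 window holds no annotated exon but lies within the longer Dusp1 model of that release, whose 5′ end is further upstream.

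By GENCODE vM21 (mm10), Dusp4 lies at chr8:34807297-34819894, Spry2 at chr14:105891947-105896819, Spred1 at chr2:117121374-117182279, Etv4 at chr11:101769742-101785371, Etv5 at chr16:22381309-22439719 and Zfp36 at chr7:28376784-28380253. Dusp1 (chr17:26505590-26562128) overlaps Ergic1 and Gm8225 on the other strand and AC122252.1 and AC122252.4 on its own. Dusp5 (chr19:53529109-53542431) overlaps AC137853.2, Zfp36 overlaps Gm44710, and Spry4 overlaps Gm27369 and Gm27804. The libraries were strand-specific, but whether the counting used strand is not given in the sources used here, so reads of these overlapping models may not be separable. Dusp6 (chr10:99263231-99267489) overlaps no other model.

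With the conventional hairpins, Dusp1, Dusp5, Dusp6 and Spry4 fell under Falcor knockdown and rose under ZC3H11A knockdown. Under the Falcor hairpin, Dusp1 was 7.66-fold lower than control, and Dusp6, Spred1, Spry4 and Zfp36 were between 3.23-fold and 3.73-fold lower. Under the ZC3H11A hairpin, Dusp1, Dusp5, Dusp6, Spry4, Etv4 and Etv5 were between 1.98-fold and 3.40-fold higher than control. The plot of CPM by library shows each gene.

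**Figure D1:**
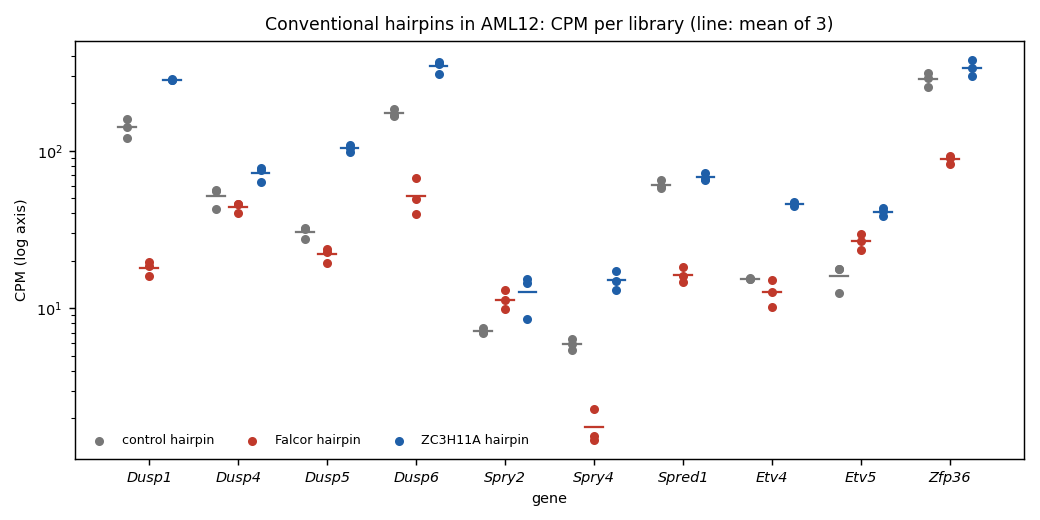
CPM of each of the 10 genes (x axis) in the 9 conventional hairpin libraries (y axis, log scale); points are libraries, coloured by hairpin, and bars are the means of 3. Dusp1 and Dusp6 lie below control under the Falcor hairpin and above it under the ZC3H11A hairpin, with no overlap among the 3 groups.

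Among the phosphatases, Dusp1 had 1225, 886 and 736 counts under the control hairpin, 113, 77 and 180 under the Falcor hairpin and 2057, 1282 and 1542 under the ZC3H11A hairpin. These were 141 ± 19.3, 18.1 ± 1.86 and 283 ± 3.08 CPM (mean ± SD, n = 3), a log2 fold change of -2.94 ± 0.11 (SE) for Falcor and 1.01 ± 0.08 for ZC3H11A. No library of one group reached another. Dusp6 had 1432, 1031 and 1033 counts under control, 411, 190 and 448 under Falcor and 2221, 1603 and 2013 under ZC3H11A, or 173 ± 10.4, 52 ± 13.8 and 343 ± 29.8 CPM. Its log2 fold changes were -1.73 ± 0.15 and 0.98 ± 0.14, again with groups apart. Dusp5 had 276, 179 and 167 counts under control, 140, 93 and 215 under Falcor and 707, 496 and 571 under ZC3H11A, which is 30.5 ± 2.71, 22 ± 2.21 and 104 ± 5.54 CPM. It fell by 0.46 ± 0.11 on the log2 scale under Falcor and rose by 1.76 ± 0.10 under ZC3H11A, so the larger change of this phosphatase was the rise. Dusp4 had 489, 308 and 261 counts under control, 280, 191 and 417 under Falcor and 452, 353 and 416 under ZC3H11A. It was not called under Falcor (log2 fold change -0.23 ± 0.12, groups overlapping), was higher under ZC3H11A (0.48 ± 0.12), and passed under Falcor without control replicate 3 (-0.35).

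Of the upstream inhibitors, Spred1 had 562, 324 and 363 counts under control, 112, 70 and 146 under Falcor and 515, 301 and 359 under ZC3H11A, or 60.9 ± 3.64, 16.3 ± 1.81 and 67.8 ± 3.43 CPM. It fell by 1.90 ± 0.11 on the log2 scale under Falcor and was not called under ZC3H11A (0.15 ± 0.10). Spry4 had 55, 30 and 36 counts under control, 9, 11 and 14 under Falcor and 124, 67 and 72 under ZC3H11A, with log2 fold changes of -1.77 ± 0.28 and 1.35 ± 0.23. Its Falcor libraries rest on few reads. Spry2, its paralogue, had 65, 39 and 43 counts under control, 69, 47 and 118 under Falcor and 104, 69 and 47 under ZC3H11A. It was higher under both hairpins, by 0.66 ± 0.23 and 0.82 ± 0.23. The Falcor call for Spry2 was lost without control replicate 2 (0.65) or Falcor replicate 3 (0.55).

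Under the Falcor hairpin, Etv5 went the other way from the phosphatases, while Etv4 was slightly lower and not called. Etv4 had 132, 87 and 93 counts under control, 93, 61 and 92 under Falcor and 322, 215 and 255 under ZC3H11A, or 15.4 ± 0.21, 12.7 ± 2.52 and 46.2 ± 1.33 CPM. It was not called under Falcor (-0.30 ± 0.15), although the groups did not overlap, and was called without Falcor replicate 1 (-0.45). Under ZC3H11A it rose by 1.58 ± 0.14. Etv5 had 154, 69 and 109 counts under control, 182, 112 and 244 under Falcor and 299, 174 and 238 under ZC3H11A. It rose under both, by 0.72 ± 0.15 and 1.35 ± 0.15.

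Zfp36 had 2490, 1746 and 1559 counts under control, 508, 442 and 823 under Falcor and 2148, 1510 and 2082 under ZC3H11A, or 286 ± 29.2, 88.5 ± 5.12 and 337 ± 39.8 CPM. It fell by 1.69 ± 0.09 on the log2 scale under Falcor. Under ZC3H11A the groups overlapped (0.24 ± 0.09), and the call was lost without control replicate 1 (0.23), control replicate 3 (0.16), ZC3H11A replicate 2 (0.25) or ZC3H11A replicate 3 (0.15).

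In all, 6 of the 10 genes were lower and 2 higher under the Falcor hairpin, where 51.5% of 11871 genes tested were called, 25.5% higher and 26% lower. Under the ZC3H11A hairpin 9 were higher, where 48.5% were called, 24.2% higher and 24.3% lower. The median log2 fold changes of the 10 were -1.08 and 1.00, against -0.00 and 0.00 over all genes tested. Both knockdowns are set against the same 3 control libraries, so the values stand side by side and are not independent of each other.

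Set directly against each other, the 2 knockdowns differed in 9 of the 10 genes, all lower under the Falcor hairpin, in a comparison that called 56.9% of genes (28.4% higher, 28.6% lower). The largest difference was that of Dusp1, at -3.95 ± 0.10, followed by Spry4 at -3.12 ± 0.27 and Dusp6 at -2.71 ± 0.15. Dusp5 was lower by 2.23 ± 0.11, Spred1 by 2.05 ± 0.11, Zfp36 by 1.93 ± 0.09 and Etv4 by 1.88 ± 0.14. Dusp4 differed by -0.71 ± 0.12 and Etv5 by -0.62 ± 0.14. For Spry2 the difference was not called (-0.15 ± 0.22).

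**Figure D2:**
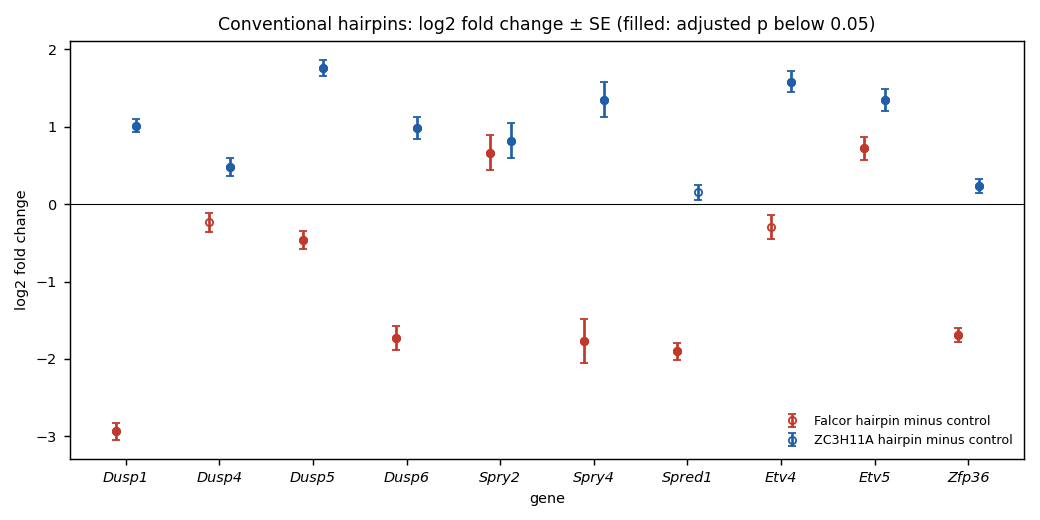
Log2 fold change ± SE of each of the 10 genes for the Falcor hairpin and the ZC3H11A hairpin, each against the shared control hairpin. Spry2 and Etv5 are above 0 under both hairpins, and Dusp1 runs from -2.94 under Falcor to 1.01 under ZC3H11A.

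The rest of the pathway was read from 74 ligands, receptors, adaptors, kinases, other inhibitors and other output genes. Under the Falcor hairpin 28 of the 65 tested were lower and 15 higher, beside 51.5% of all genes called. The largest falls were those of Zfp36l2, a relative of ZFP36 (-2.22 ± 0.07), of Met, the receptor for hepatocyte growth factor (-1.98 ± 0.08), and of the adaptor Shc1 (-1.86 ± 0.07). The largest rises were those of the phosphatase Dusp9 (1.35 ± 0.25), Emp1 (1.33 ± 0.07) and Plaur, the urokinase receptor (1.28 ± 0.14). Under the ZC3H11A hairpin 26 were higher and 11 lower, beside 48.5% of all genes. Fosl1, a component of AP-1, rose most (2.17 ± 0.16), followed by Epha4 (1.76 ± 0.50) and Emp1 (1.60 ± 0.07), and Fgfr2 (-1.83 ± 0.36), Fgf1 (-1.58 ± 0.12) and Zfp36l1 (-1.24 ± 0.09) were lowest. Epha4 was no longer called without control replicate 1, control replicate 2, ZC3H11A replicate 1 or ZC3H11A replicate 2 (1.55 to 1.74). Of 13 other ERK output genes tested, 5 rose and 5 fell under Falcor (median 0.27), and 7 rose and 2 fell under ZC3H11A (median 0.27). In the direct comparison, 26 of the 65 were lower under Falcor and 9 higher, beside 56.9% of all genes.

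In the inducible experiment, values differed between states of the culture and between the lines, also with no doxycycline given. The plot of scaled values by state shows 3 kinds of course. Dusp1 and Zfp36 were high without doxycycline and low in both later states, in both lines. Etv4 and Etv5 were far lower in the Falcor hairpin line than in control cells in the untreated and restored states and not with doxycycline. Dusp5, Dusp6 and Spry2 were lowest in the restored Falcor hairpin line.

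**Figure D3:**
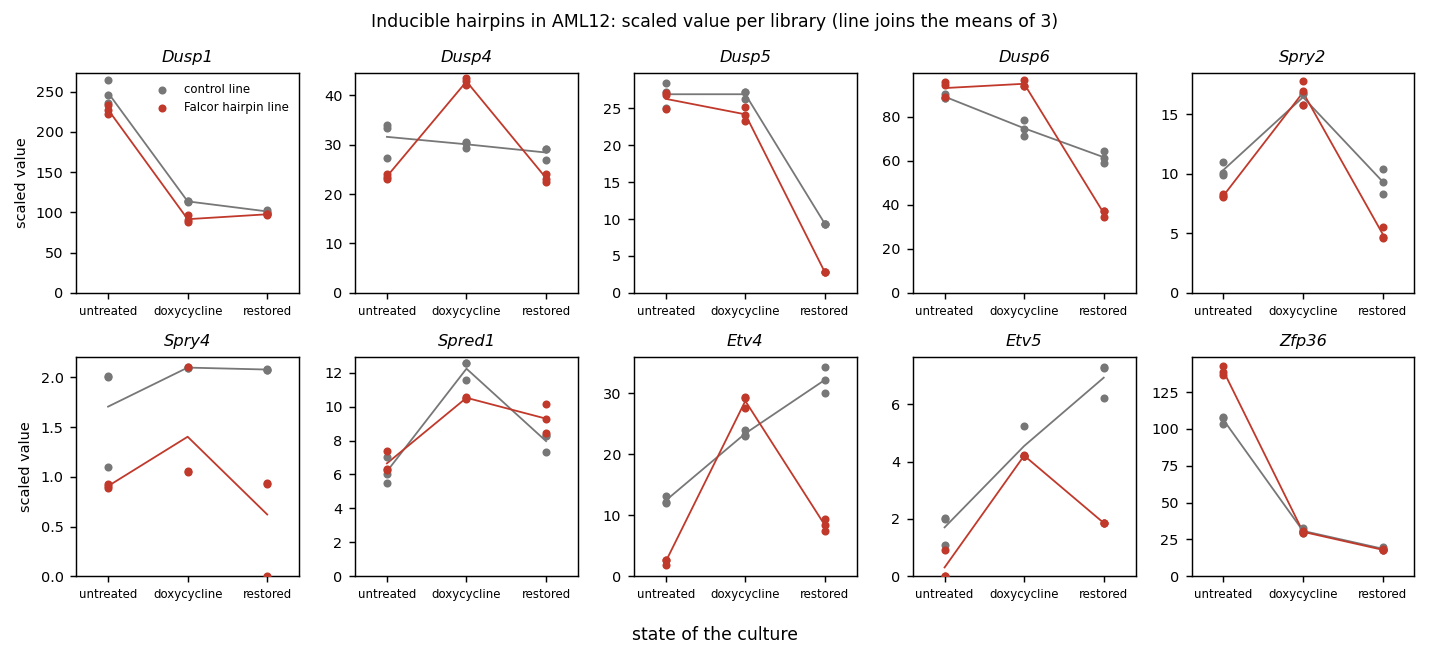
Scaled value (y axis) of each of the 10 genes in the 3 states (x axis) of the control line and the Falcor hairpin line; points are libraries and lines join the means of 3. Etv4 in the Falcor hairpin line goes from 2.41 untreated to 28.8 with doxycycline and 8.37 restored, while the control line goes from 12.4 to 23.4 and 32.2.

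Etv4 was listed at 12, 12 and 12 in the untreated control line and at 2, 3 and 3 in the untreated Falcor hairpin line. With doxycycline it was at 22, 22 and 23 against 28, 26 and 28, and in the restored state at 29, 33 and 31 against 9, 10 and 8. The Falcor hairpin line was lower in 2 states and higher in the other, with log2 differences of -1.99 ± 0.09 untreated, 0.28 ± 0.09 with doxycycline and -1.83 ± 0.09 restored. Without Falcor hairpin replicate 1 or 3 of the doxycycline state, the doxycycline difference of Etv4 was not called (0.27 in both). Etv5 was listed at 1, 2 and 2 against 1, 0 and 0 untreated, at 4, 4 and 5 against 4, 4 and 4 with doxycycline, and at 6, 7 and 7 against 2, 2 and 2 restored. Its log2 differences were -1.10 ± 0.20, -0.08 ± 0.20 (not called) and -1.47 ± 0.20. Values this low take only a few whole numbers.

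Of the phosphatases, Dusp5 was listed at 26, 25 and 27 in the untreated control line and 29, 28 and 30 in the untreated Falcor hairpin line, and at 25, 26 and 26 against 24, 22 and 23 with doxycycline. In the restored state it was at 9, 9 and 9 against 3, 3 and 3. The lines differed by -0.03 ± 0.05 untreated (not called), by -0.15 ± 0.05 with doxycycline and by -1.45 ± 0.05 in the restored state. Without rescaling the untreated difference of Dusp5 was 0.15 and called. The doxycycline call of Dusp5 was lost without control replicate 2 (-0.14), control replicate 3 (-0.14), Falcor hairpin replicate 2 (-0.12) or Falcor hairpin replicate 3 (-0.15). Dusp6 was listed at 81, 90 and 88 against 102, 100 and 106 untreated, at 68, 71 and 75 against 92, 89 and 90 with doxycycline, and at 57, 59 and 62 against 40, 37 and 40 restored. After scaling, its differences were 0.06 ± 0.04 (not called), 0.34 ± 0.04 and -0.75 ± 0.04, so the sign turned between doxycycline and the restored state. Without rescaling the untreated difference of Dusp6 was 0.25 and called. Dusp4 was listed at 25, 34 and 33 against 25, 27 and 26 untreated, at 29, 28 and 29 against 40, 41 and 41 with doxycycline, and at 28, 28 and 26 against 26, 24 and 25 restored, with differences of -0.40 ± 0.06, 0.50 ± 0.06 and -0.28 ± 0.06. Without rescaling the restored difference of Dusp4 was -0.12 and not called.

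Dusp1 differed little between the lines. It was listed at 241, 245 and 234 against 252, 250 and 251 untreated, at 108, 108 and 109 against 84, 85 and 92 with doxycycline, and at 96, 99 and 97 against 106, 104 and 105 restored. Its differences after scaling were -0.12 ± 0.04, -0.31 ± 0.04 and -0.05 ± 0.04 (not called). Without rescaling the untreated one was 0.06 and not called, and the restored one was 0.11 and called. Zfp36 was listed at 98, 103 and 107 against 150, 153 and 158 untreated, at 29, 28 and 31 against 29, 28 and 29 with doxycycline, and at 17, 18 and 19 against 19, 19 and 20 restored. Only the untreated difference of Zfp36 was called (0.39 ± 0.04), and the other two were -0.03 and -0.05.

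Spry2 was listed at 9, 11 and 10 against 9, 9 and 9 untreated, at 15, 16 and 16 against 15, 16 and 17 with doxycycline, and at 9, 8 and 10 against 6, 5 and 5 restored. Its differences were -0.30 ± 0.08, 0.03 ± 0.08 (not called) and -0.80 ± 0.08. Without rescaling the untreated difference of Spry2 was -0.13 and not called. Spred1 was listed between 5 and 12 in all 18 libraries, and its differences of 0.09, -0.20 and 0.20 were not called. Spred1 was called higher in the restored state without Falcor hairpin replicate 2 of that state (0.26), with RLE scale factors (0.23) and without rescaling (0.34), and in the untreated state without rescaling (0.26). Spry4 was listed at 0 to 2 in all 18 libraries, too low to be tested here.

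**Figure D4:**
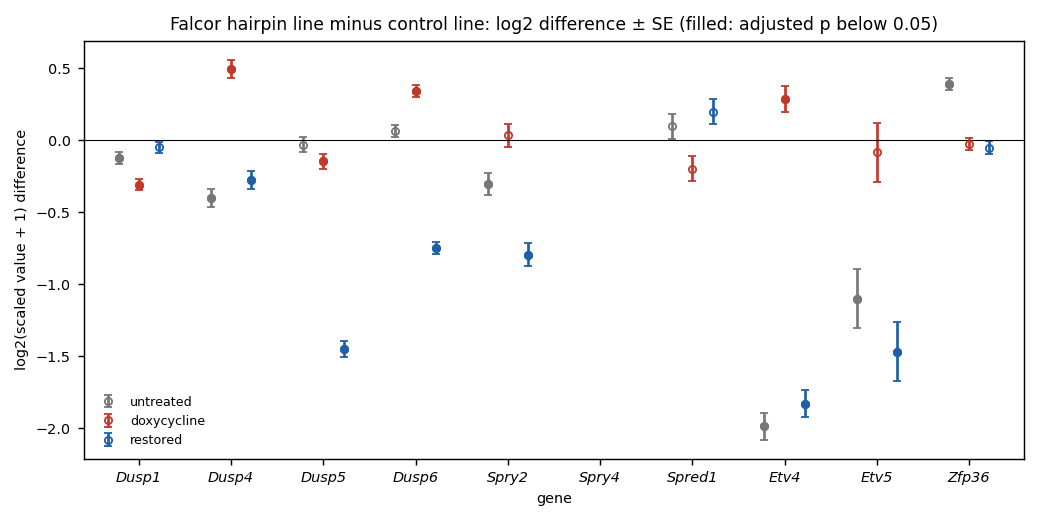
Log2 difference ± SE between the Falcor hairpin line and the control line (y axis) for each gene in the 3 states; filled points passed the test and open points did not, and Spry4 was not tested. The restored differences of Etv4, Etv5, Dusp5, Spry2 and Dusp6 lie between -1.83 and -0.75, while with doxycycline no gene lies below -0.31.

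Of the 9 genes tested, 5 were lower and 1 higher in the untreated Falcor hairpin line (65.3% of 9840 genes tested were called, 30.1% higher and 35.2% lower), 2 were lower and 3 higher with doxycycline (52.5%, with 25.4% higher and 27% lower), and 6 were lower in the restored state (57.9%, with 25.7% higher and 32.3% lower), with the remainder not called. Leaving out the rescaling moved the median of all genes by 0.18 untreated and 0.15 restored. It turned the split of called genes among the 9 to 3 lower and 4 higher untreated and 5 lower and 2 higher restored, and that over all genes from 3468 lower and 2961 higher to 2141 and 4467 untreated and from 3174 and 2528 to 1959 and 4016 restored. The doxycycline count fell from 5 to 3 without Falcor hairpin replicate 3 of that state. The untreated differences were measured with no doxycycline given.

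Large changes between the untreated and the doxycycline state were also seen in the control line. The labels give no times, so doxycycline and time in culture cannot be told apart. In the control line Zfp36 fell by 1.75 ± 0.04 on the log2 scale and Dusp1 by 1.12 ± 0.04, Dusp6 fell by 0.25 ± 0.04, and Etv5 (1.05 ± 0.20), Spred1 (0.89 ± 0.09), Etv4 (0.86 ± 0.09) and Spry2 (0.62 ± 0.08) rose. These 7 calls among 9 stand beside 66.5% of all genes (34% higher, 32.5% lower). Dusp4 and Dusp5 were not called, and Dusp4 was called without untreated control replicate 1 (-0.16). In the Falcor hairpin line Zfp36 fell by 2.17 ± 0.04 and Dusp1 by 1.31 ± 0.04, while Etv4 rose by 3.13 ± 0.09, Etv5 by 2.07 ± 0.20, Spry2 by 0.96 ± 0.08, Dusp4 by 0.83 ± 0.06 and Spred1 by 0.59 ± 0.09. That is 7 of 9 beside 74.2% of all genes (38.8% higher, 35.5% lower). Dusp6 (0.03) and Dusp5 (-0.12) were not called, and Dusp5 was called without untreated Falcor hairpin replicate 2 (-0.15) or doxycycline replicate 1 (-0.14) of that line. Without rescaling, which moved the median of all genes by -0.20, the Dusp5 and Dusp6 values were -0.32 and -0.18, and 5 of the 9 were higher and 4 lower. The split over all genes then went from 3813 higher and 3491 lower to 2635 and 4695.

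From doxycycline to the restored state, Dusp5 fell by 1.43 ± 0.05 in the control line and by 2.73 ± 0.05 in the Falcor hairpin line. Spry2 fell by 0.76 ± 0.08 and 1.58 ± 0.08, Zfp36 by 0.69 ± 0.04 and 0.72 ± 0.04, and Dusp6 by 0.27 ± 0.04 and 1.37 ± 0.04. Etv4 rose by 0.44 ± 0.09 in the control line and fell by 1.67 ± 0.09 in the Falcor hairpin line, and Etv5 rose by 0.52 ± 0.20 and fell by 0.87 ± 0.20. Dusp4 fell by 0.85 ± 0.06 in the Falcor hairpin line and was not called in the control line (-0.08), Spred1 fell by 0.56 ± 0.09 in the control line and was not called in the other (-0.17), and Dusp1 changed by -0.17 ± 0.04 and 0.09 ± 0.04. The counts were 2 higher and 6 lower of 9 in the control line (73.8% of all genes were called, 39.6% higher and 34.2% lower) and 1 higher and 7 lower in the Falcor hairpin line (72.2%, with 34.1% higher and 38.1% lower). The small rise of Dusp1 in the Falcor hairpin line was lost without doxycycline replicate 1 (0.07) or 2 (0.08) or any of the 3 restored replicates (0.09 to 0.10) of that line, and the rise of Etv5 in the control line without doxycycline replicate 1 or 2 or restored replicate 2 or 3 of that line (0.47 to 0.49). Spred1 in the Falcor hairpin line was called without restored replicate 3 (-0.23). Without rescaling the split over all genes in the Falcor hairpin line went from 3354 higher and 3753 lower to 4404 and 2636.

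Most of the genes differed between the restored and the untreated state. Against untreated, Zfp36 was lower by 2.44 ± 0.04 in the control line and by 2.89 ± 0.04 in the Falcor hairpin line, Dusp5 by 1.43 ± 0.05 and 2.85 ± 0.05, Dusp1 by 1.29 ± 0.04 and 1.21 ± 0.04, and Dusp6 by 0.53 ± 0.04 and 1.34 ± 0.04. Etv4 was higher by 1.31 ± 0.09 and 1.46 ± 0.09, Etv5 by 1.57 ± 0.20 and 1.20 ± 0.20, and Spred1 by 0.32 ± 0.09 and 0.43 ± 0.09. Spry2 was lower in the Falcor hairpin line (-0.62 ± 0.08) and not called in the control line (-0.13), and Dusp4 was not called in either (-0.14 and -0.02), though it was in the control line without untreated replicate 1 (-0.24). Called were 7 of 9 in the control line (49.9% of all genes, 27.2% higher and 22.8% lower) and 8 of 9 in the Falcor hairpin line (52.4%, with 28.6% higher and 23.8% lower).

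Whether the line difference itself changed with doxycycline was tested as an interaction. Against the untreated state, the difference between the lines rose with doxycycline by 2.27 ± 0.13 for Etv4, 1.02 ± 0.29 for Etv5, 0.90 ± 0.09 for Dusp4, 0.34 ± 0.11 for Spry2 and 0.28 ± 0.06 for Dusp6. It fell by 0.42 ± 0.06 for Zfp36, 0.29 ± 0.12 for Spred1 and 0.19 ± 0.06 for Dusp1, and was not called for Dusp5 (-0.12). Those 8 calls of 9 stand beside 65% of all genes (34.1% higher, 30.9% lower). The Spred1 call was lost without 8 of the 12 libraries left out in turn (-0.30 to -0.22): control untreated replicates 1 and 3, Falcor hairpin untreated replicate 1, control doxycycline replicates 2 and 3, and the 3 Falcor hairpin doxycycline replicates. Without rescaling 3 of the 9 rose and 4 fell, with Spry2 (0.16) and Dusp6 (0.09) no longer called and Dusp5 (-0.30) called, and the split over all genes went from 3351 higher and 3044 lower to 2257 and 4004.

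Against the restored state, the difference between the lines was higher with doxycycline by 2.11 ± 0.13 for Etv4, 1.38 ± 0.29 for Etv5, 1.30 ± 0.08 for Dusp5, 1.09 ± 0.06 for Dusp6, 0.83 ± 0.11 for Spry2 and 0.77 ± 0.09 for Dusp4. It was lower by 0.40 ± 0.12 for Spred1 and 0.26 ± 0.06 for Dusp1, and not called for Zfp36 (0.03). These 8 of 9 stand beside 60.5% of all genes (31.8% higher, 28.7% lower), whose split went from 3130 higher and 2826 lower to 2138 and 3693 without rescaling. Both interactions use the same 6 doxycycline libraries.

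The doxycycline comparison and the conventional Falcor hairpin can be set side by side. With doxycycline, Falcor was at 2.45 in the hairpin line against 4.90 in the control line, a log2 difference of -0.78 ± 0.14 (limma adjusted p = 0.000218). In that comparison Dusp6 was higher (0.34), whereas under the conventional Falcor hairpin it was lower (-1.73). Zfp36 was -0.03 (not called) with doxycycline and -1.69 under the conventional hairpin, and Spred1 was -0.20 (not called) and -1.90. Dusp1 was lower in both, at -0.31 and -2.94, and so was Dusp5, at -0.15 and -0.46. Etv4 was 0.28 and -0.30 (not called), and Etv5 -0.08 (not called) and 0.72. Dusp4 was 0.50 and -0.23 (not called), and Spry2 0.03 (not called) and 0.66. The lines also differed before doxycycline, and these differences leave that in. The interaction against untreated, given above, was -0.42 for Zfp36, -0.29 for Spred1, 0.28 for Dusp6, -0.19 for Dusp1 and -0.12 (not called) for Dusp5. The inducible and conventional values come from tables in different units, and no test joined them.

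Genes with the most similar course to Etv4 over the 18 inducible libraries, among 6671 genes, were Mcm5, Aimp2, Tk1, Nubp1 and Hdgf (Pearson r on log2 scaled values of 0.992, 0.991, 0.990, 0.989 and 0.988). For Dusp6 they were Insig1, Msmo1, Hbegf, Sqle and Uap1 (0.951, 0.944, 0.940, 0.925 and 0.925). For Spry4 the highest were 0.873 (Fgfr1op2) and 0.860 (Amz2), over values of 0 to 2 only. The 18 libraries are 6 groups of 3, and libraries of a group lie close together, so these correlations are a description.

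Other ERK output genes were read beside the members. In the restored state 10 of 13 were lower and 1 higher in the Falcor hairpin line, where 57.9% of all genes were called, with a median of -0.98 against -0.02 over all genes. Fosl1 was lowest (-2.10 ± 0.05), from 60.1 to 70.6 in the control line to 14.1 to 14.8 in the Falcor hairpin line. Ccnd1, encoding cyclin D1, differed by -1.63 ± 0.04 and Phlda1 by -1.48 ± 0.04. With doxycycline 5 were higher and 3 lower (median 0.07, 52.5% of all genes called), and untreated 2 were higher and 7 lower (median -0.35, 65.3% called). Of the whole list, 60 genes were tested, and the counts called, 40 restored, 43 untreated and 37 with doxycycline, stand beside these same shares of all genes. In the restored state 14 were higher and 26 lower, with Fgfr3 (1.13 ± 0.07), Fgfr2 (1.01 ± 0.13) and the EGFR inhibitor Errfi1 (0.59 ± 0.04) highest. Without rescaling that split was 23 and 22. Untreated it was 22 higher and 21 lower (32 and 19 without rescaling), with Elk4 (0.85), Fgf1 (0.85) and Errfi1 (0.81) highest and Plaur (-1.32), Areg (-1.26) and Fosl1 (-1.08) lowest. With doxycycline it was 15 higher and 22 lower, with Cic (0.39), Areg (0.32) and Lrig1 (0.31) highest and Fgf1 (-1.36), Rasa1 (-1.06) and the kinase gene Map2k1 (-0.94) lowest. The calls of Cic and Lrig1 were lost without the first Falcor hairpin replicate of that state (0.36 and 0.21) and without other single libraries: for Cic the first control (0.32) or the third Falcor hairpin replicate (0.39), and for Lrig1 the third control replicate (0.23).

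In liver these genes were low, and the 2 diets were scaled apart. In bulk liver, fewer cells of a type and less RNA per cell cannot be told apart. One HFD knockout library, replicate 6, stood apart, with 9369 genes above 0 against 11762 to 13848 in the other HFD livers, and 3 rows with identical values held 78.2% of its column, against 22.4 to 56.8%. Etv4 was listed at 0 in all 19 livers, Dusp5 in all 8 NCD livers and Spry2 in all 11 HFD livers. Dusp4 was at 0 to 3, and Etv5 at 0 to 3. A value of 0 in a table of whole numbers with unknown depth says only that it is listed as 0.

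On NCD, 5 of the genes were high enough to be tested and none was called (limma, 0 of 5, and 0 at an unadjusted p below 0.05), in a comparison that called 6.05% of all genes (4.2% higher, 1.85% lower). Dusp6 was listed at 18, 11, 12 and 7 in control and 10, 18, 19 and 13 in knockout livers, a log2 difference of 0.15 ± 0.29. Zfp36 was at 14, 15, 10 and 9 against 11, 14, 13 and 12 (-0.10 ± 0.17), and Dusp1 at 4, 10, 2 and 5 against 3, 6, 6 and 4 (-0.16 ± 0.37). Spred1 (0.28 ± 0.16) and Spry4 (-0.01 ± 0.17) also overlapped between genotypes. The number of genes called over the whole table ranged from 6 without control replicate 3 to 1707 without control replicate 4, around 570 with all 8 livers.

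On HFD, 3 of the genes could be tested and none was called (limma, 0 of 3, with 1 at an unadjusted p below 0.05), in a comparison that called 0.0507% of all genes (0.0338% higher, 0.0169% lower). Dusp1 was listed at 3, 7, 10, 9 and 11 in control livers, and in the 6 knockout livers from 1 to 7 with a median of 2.5. Its log2 difference was -1.18 ± 0.32, with the lowest control within the range of the knockouts. Without rescaling Dusp1 was called (-1.21). Dusp6 was listed at 6, 7, 19, 21 and 9 in control livers and from 2 to 15 with a median of 5.5 in knockout livers (-0.83 ± 0.42). Zfp36 was at 14, 22, 24, 41 and 14 against 6 to 23 with a median of 9 (-0.82 ± 0.40), and both genes overlapped between genotypes. Spry4 was at 1 to 5 in control and 0 to 3 in knockout livers and Spred1 at 2 to 3 and 0 to 9, too low to be tested.

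**Figure D5:**
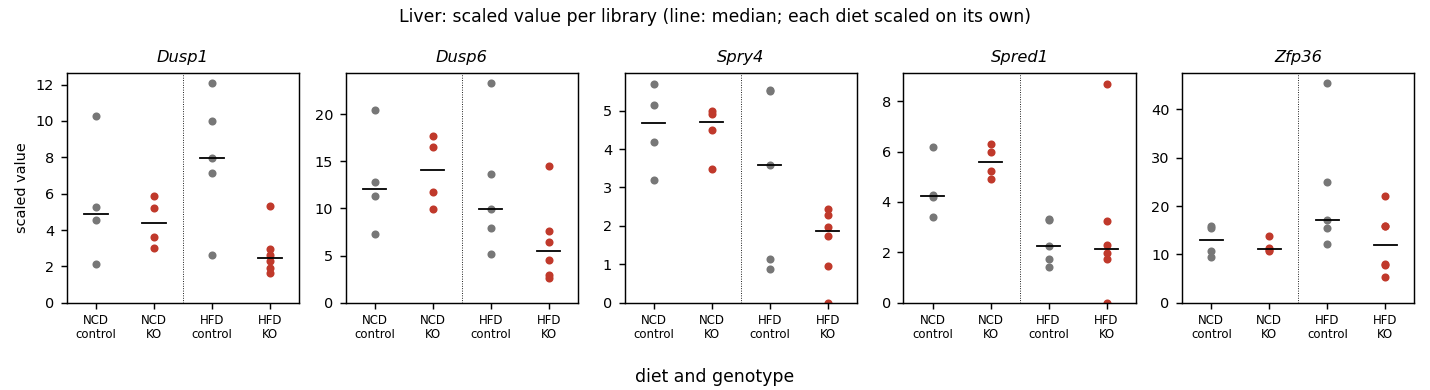
Scaled value (y axis) of the 5 genes tested in liver, by diet and genotype (x axis); points are livers, lines are medians, and each diet was scaled on its own. Every gene overlaps between control and knockout livers on both diets.

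Whether the knockout difference itself changed with diet was tested for the same 3 genes, and none was called (limma, 0 of 3, with 0 at an unadjusted p below 0.05), where 7.88% of all genes were (2.87% higher, 5.01% lower). HFD minus NCD, the differences were -1.02 ± 0.49 for Dusp1, -0.98 ± 0.52 for Dusp6 and -0.72 ± 0.43 for Zfp36. In a fit with the replicate number as a block, on the livers whose number both genotypes share, Dusp6 was called (-1.16). Summed macrophage markers, whose part in these values was not tested, ran from 60.7 to 117 in NCD control livers and from 46.8 to 68.7 in NCD knockouts, and from 13.6 to 31.5 and 11.4 to 31.4 on HFD.

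Of the wider pathway list, 45 genes were tested on NCD and few were called, as were few of all genes (6.05%). Fgfr2, a receptor for fibroblast growth factors, was higher in knockout livers by 0.48 ± 0.11 (limma adjusted p = 0.0442), and the related receptor gene Fgfr3 was lower by 0.46 ± 0.11 (limma adjusted p = 0.0485). Both calls were lost when any 1 of the 8 livers other than control replicate 4 was left out (Fgfr2 0.39 to 0.50, Fgfr3 -0.52 to -0.38). Both were also lost in the fit with the block. The Fgfr3 call was lost at a mean of at least 1, with no filter on low values and without rescaling. On HFD none of 30 was called by limma, with 3 at an unadjusted p below 0.05, beside 0.0507% of all genes called. In the test of diet, which called 7.88% of all genes, Errfi1 was lower (-0.83 ± 0.23). The Errfi1 call was lost without any NCD liver other than control replicate 4 (-0.87 to -0.70), and without HFD control replicate 4, HFD knockout replicate 2 or HFD knockout replicate 6 (-0.81 to -0.76). It was lost as well at a mean of at least 1, with no filter on low values, without rescaling and with the block.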

How the data were processed

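The 46 libraries of AML12 cells and mouse liver were depleted of rRNA and kept strand, per the labels' protocols. Tools named by the submitters' processing notes are DESeq2 and kallisto, and the build is mm10, all without version or role. Neither the annotation release nor strand use in counting is given in the sources used here. Raw counts, as deposited by the authors, make up the conventional table. The inducible, NCD and HFD tables, as deposited, hold a score: whole numbers that look like a rounded per-million value, though no source says so.

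Counts were tested with edgeR 4.0.16 (TMM scaling, filterByExpr, robust quasi-likelihood test), and CPM were computed from them with the same scale factors. Scores were scaled by TMM, kept at a mean of at least 3, and tested with limma 3.58.1 (trend, robust) on log2(scaled value + 1), in R 4.3.3. All groups of a table shared 1 fit, except the diet test, which is the difference of the estimates of both liver tables. P-values were Benjamini-Hochberg adjusted over all genes tested, with calls below 0.05. The tests were checked on simulated data.

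Alternatives were DESeq2 1.42.0, other scalings and filters, another pseudocount, the replicate number as a block, and leaving out each library. Deviations of same-numbered libraries had a median correlation of 0.030 (inducible) and 0.040 (conventional). In liver it was 0.13 over 2 NCD pairs (0.11 and 0.14, above every pair with other numbers) and 0.14 over 3 HFD pairs (lowest -0.12). The labels tie no number to a shared animal, litter or day, and in no table with 3 or more pairs was every correlation above 0.1, so the main fits have no block. In the liver tables, 4 control columns could be matched to their group only.

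The 10 genes and the lists were chosen with earlier results of these data known. Named beside the 10 genes were Falcor, Zc3h11a, the 3 largest called and not overlapping changes in each direction of the 74 pathway genes, and the 5 genes most alike in pattern to Etv4, Dusp6 and Spry4. Remarks on Cd68, other single markers and HFD knockout replicate 6, the windows and motifs, and the 3 windows shown, were chosen after the values or matches were seen. Gene positions are from GENCODE vM21. A result on the pathway list in liver is not reported here.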

Additional observations from a re-analysis of the deposited data

Results flagged for a closer look

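The difference between the Falcor hairpin line and the control line changed with doxycycline by the test of the interaction (limma, adjusted over all genes) for 8 of the 9 genes tested in each case, beside 65% (against untreated) and 60.5% (against restored) of all genes. Against the untreated state, the change was 2.27 for Etv4, 1.02 for Etv5, 0.90 for Dusp4, 0.34 for Spry2, 0.28 for Dusp6, -0.19 for Dusp1, -0.29 for Spred1 and -0.42 for Zfp36, on the log2 scale. Against the restored state it was 2.11 for Etv4, 1.38 for Etv5, 1.30 for Dusp5, 1.09 for Dusp6, 0.83 for Spry2, 0.77 for Dusp4, -0.26 for Dusp1 and -0.40 for Spred1. Against untreated, the Spred1 call was lost without any 1 of 8 of the 12 libraries, and the Spry2 and Dusp6 calls without rescaling (0.16 and 0.089). Both sets use the same doxycycline libraries, and the Etv5 values rest on deposited numbers of 0 to 7.

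In liver, 2 single values were flagged against the others of their group by Dixon's test, among 16 groups tested, of which chance picks about 1 in 20. Zfp36 in NCD knockout replicate 2 had a scaled value of 13.7, and Dusp1 in HFD knockout replicate 3 one of 5.32. Both groups hold low whole numbers, so a gap of a few units is enough to be flagged.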

How the results depend on the processing

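Over the members' values, 1798 were recomputed under another setting or without 1 library, and 1708 kept their direction and their side of the threshold. A further 32 changed sign, and a call gained or lost together with the sign counts only there. With the sign kept, 40 lost a call and 18 gained one. Without rescaling, the untreated differences of Dusp1 and Dusp5 became 0.065 and 0.15, the restored ones of Dusp1 and Zfp36 0.11 and 0.099, the doxycycline response of Dusp5 (control line) and Dusp6 (Falcor hairpin line) -0.017 and -0.18, the interaction of Zfp36 against restored -0.13, and the NCD differences of Spry4 and Zfp36 0.15 and 0.078. With RLE factors, that Dusp5 response was -0.015 and that Zfp36 interaction -0.0015. With 1 library left out, values spanned 0 for Dusp5 untreated (-0.084 to 0.0054), for Spry2 (-0.0067 to 0.075), Etv5 (-0.13 to 0.0021) and Zfp36 (-0.058 to 0.011) with doxycycline, for the doxycycline response of Dusp5 in the control line (-0.046 to 0.043) and Dusp6 in the Falcor hairpin line (-0.00075 to 0.051), for Dusp4 restored against untreated in the Falcor hairpin line (-0.044 to 0.0021), for the Zfp36 interaction against restored (-0.0091 to 0.066), and on NCD for Dusp1 (-0.49 to 0.15), Dusp6 (-0.085 to 0.38), Spry4 (-0.16 to 0.087) and Zfp36 (-0.24 to 0.0065). Of these members' values only the untreated difference of Dusp1 had been called, and without rescaling it was not. Without rescaling, the untreated difference of Dusp5, the restored one of Dusp1 and that Dusp6 response were called with the changed sign. The cause was not tested.

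With 1 library left out, the number of genes called among the members was 6 to 6 untreated, 3 to 5 with doxycycline, 6 to 7 restored, 7 to 9 under the conventional Falcor hairpin, 8 to 9 under ZC3H11A, 9 to 9 in their direct comparison, 7 to 8 in each doxycycline response, each withdrawal, the control line's restored against untreated and the interaction against untreated, 8 to 8 in the other restored against untreated and the other interaction, and 0 in liver. Without rescaling it was 1 on HFD (Dusp1). The same replicate numbers, used as a replicate block, gave 7 calls in the withdrawal of the Falcor hairpin line, losing Dusp1, and 7 in the interaction against untreated, losing Spred1. In liver the block fit kept only livers whose number both genotypes share, 2 pairs on NCD and 3 on HFD. That fit gave 1 call in the diet test (Dusp6, -1.16) and turned the NCD values of Dusp1 (0.27), Spry4 (0.086) and Zfp36 (0.12). The block and the loss of livers cannot be told apart there.

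Over all genes, the NCD count of 570 became 311 at a mean of at least 1, 1746 without rescaling (1657 higher and 89 lower against 396 and 174), and 6 to 1707 without 1 liver. With the block it was 9, on the 2 pairs of NCD livers only. The HFD count of 3 became 12 without a filter, 29 without rescaling, 17 with RLE factors, 17 with dominant rows left out before scaling, and 1 to 8 without 1 liver, and the diet count of 462 became 230 without a filter, 51 without rescaling, 738 with dominant rows left out, 46 with the block (on the paired livers of both diets only) and 63 to 1166 without 1 liver. DESeq2 called 5567, 5195 and 6260 genes in the conventional comparisons, where edgeR called 6111, 5757 and 6760. Low numbers limit Etv5, Spry4 and the liver values most.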
